A study of Mus musculus with 2 samples.

Results

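The 48 genes described here encode proteins that copy DNA and divide the cell: 23 act in DNA replication, from origin licensing to nucleotide supply, and 25 act in mitosis, from entry to the separation of chromosomes. They were chosen by name, and all 48 were rows of the gene table, out of 31056 rows in all. The study profiled sorted CD4+ CD25+ cells, a surface phenotype that enriches regulatory T (Treg) cells, from healthy female Mycfl/flFoxp3Cre/WT mice. In these mice both Myc alleles are floxed, and 1 Foxp3 allele carries Cre, so that Treg cells with and without Myc live in the same animal. YFP+ and YFP- cells were loaded together, and 1 library was made from each tissue, lymph node and spleen. Both libraries share the genotype and the sort, and no treatment is named. The Cre is driven by Foxp3, a gene on the X chromosome that a female cell uses from either of its copies. The sources used here do not give the age of the mice, the number of animals or the YFP status of each cell. With 1 library per tissue there is no replicate, so no test between tissues was possible, and every interval below is a 95% interval that covers counting error only.

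A dividing T cell first licenses replication origins by loading the MCM helicase ring with Cdc6 and Cdt1, and then fires them with the GINS complex and copies DNA at forks organised by the sliding clamp PCNA. Entry into mitosis follows from cyclin A and cyclin B bound to Cdk1 and from the Polo and Aurora kinases, and exit follows when Cdc20 and Ube2c direct the anaphase-promoting complex to destroy cyclins. Transcripts of the replication genes are known to build up at the entry to S phase under E2F factors, and those of the mitosis genes later, in G2 and M, through promoters with CCAAT boxes and a cell cycle homology region (CHR). Resting T cells hold most of both gene groups silent, and Treg cells are known to contain a dividing fraction in healthy mice.

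The promoters are shown because the replication and the mitosis members, which the results below separate by tissue and by cell, also differ in the letters before their start sites. RefSeq promoters on GRCm38.p6 (250 bases before to 50 after the start) were found for 42 members, with 46 promoters. The E2F letters searched were TTTCCCGC, TTTGGCGC, TTTCGCGC and TTTGCCGC, the CHR letters were TTTGAA and the CCAAT box was CCAAT, each on both strands. Matches are in capitals below, and overlapping matches on opposite strands run together. Mcm5 (chr8:75109259-75109558, plus strand) and Mcm6 (chr1:128359656-128359955, minus strand) encode subunits of the replicative helicase. Pclaf (chr9:65890073-65890372, plus strand) encodes a factor bound to PCNA. Ccnb2 (chr9:70421505-70421804, minus strand) encodes cyclin B2, Ube2c (chr2:164769679-164769978, plus strand) the E2 enzyme of the anaphase-promoting complex, and Cdk1 (chr10:69352863-69353162, minus strand) the mitotic kinase.
Mcm5: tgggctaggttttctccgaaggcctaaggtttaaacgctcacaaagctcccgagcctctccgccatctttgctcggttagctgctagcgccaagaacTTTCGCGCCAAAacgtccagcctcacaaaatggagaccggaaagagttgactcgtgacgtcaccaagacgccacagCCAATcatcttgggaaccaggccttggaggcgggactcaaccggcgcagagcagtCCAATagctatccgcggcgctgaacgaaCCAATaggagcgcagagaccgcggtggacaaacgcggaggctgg
Mcm6: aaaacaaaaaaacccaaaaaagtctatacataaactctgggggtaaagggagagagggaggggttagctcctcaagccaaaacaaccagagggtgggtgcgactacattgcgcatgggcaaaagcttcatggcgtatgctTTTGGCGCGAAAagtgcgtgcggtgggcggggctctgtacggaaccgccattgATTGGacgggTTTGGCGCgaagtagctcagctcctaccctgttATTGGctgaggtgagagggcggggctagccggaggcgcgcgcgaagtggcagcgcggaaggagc
Pclaf: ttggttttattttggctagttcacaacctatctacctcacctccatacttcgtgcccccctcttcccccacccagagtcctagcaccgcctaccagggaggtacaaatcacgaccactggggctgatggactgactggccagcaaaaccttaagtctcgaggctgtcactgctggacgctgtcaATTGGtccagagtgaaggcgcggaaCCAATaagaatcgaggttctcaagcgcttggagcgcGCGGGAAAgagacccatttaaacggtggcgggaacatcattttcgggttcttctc
Ccnb2: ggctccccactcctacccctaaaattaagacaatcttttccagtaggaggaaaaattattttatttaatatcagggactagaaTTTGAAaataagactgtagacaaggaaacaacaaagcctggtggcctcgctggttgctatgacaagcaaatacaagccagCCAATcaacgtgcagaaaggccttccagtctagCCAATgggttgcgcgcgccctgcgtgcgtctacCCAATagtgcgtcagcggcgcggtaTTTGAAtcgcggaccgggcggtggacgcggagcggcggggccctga
Ube2c: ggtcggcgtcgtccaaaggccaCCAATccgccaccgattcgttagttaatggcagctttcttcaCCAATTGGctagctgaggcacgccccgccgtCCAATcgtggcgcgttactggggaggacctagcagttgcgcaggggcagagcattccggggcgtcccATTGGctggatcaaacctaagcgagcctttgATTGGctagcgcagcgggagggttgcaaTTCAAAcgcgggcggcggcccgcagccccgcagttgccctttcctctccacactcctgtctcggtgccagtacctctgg
Cdk1: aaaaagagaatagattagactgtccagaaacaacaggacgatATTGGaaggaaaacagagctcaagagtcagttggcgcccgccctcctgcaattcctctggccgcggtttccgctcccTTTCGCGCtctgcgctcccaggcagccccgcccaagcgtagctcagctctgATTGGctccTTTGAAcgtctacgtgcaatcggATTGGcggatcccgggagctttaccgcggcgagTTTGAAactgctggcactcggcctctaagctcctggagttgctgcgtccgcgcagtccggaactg
An E2F match stood in 9 of 25 replication promoters (36%), in 1 of 21 mitosis promoters (4.76%), that of Cdk1, and in 2.26% of all 32851 promoters of this length. A CHR match stood in 3 of 25 replication promoters (12%) and in 15 of 21 mitosis promoters (71.4%), against 17.9% of all promoters. All 15 of those mitosis promoters also held a CCAAT box, a combination found in 8% of replication promoters and 6.95% of all promoters. At least 2 CCAAT boxes stood in 32% of replication, 71.4% of mitosis and 11.7% of all promoters. Mcm5 and Mcm6 thus carry E2F letters and CCAAT boxes but no CHR letters, whereas Ccnb2 and Ube2c carry CHR letters and CCAAT boxes but no E2F letters, and Cdk1 carries all 3 kinds.

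The lymph node library held 5079 barcodes and the spleen library 6840, with 13324306 and 16868549 unique molecular identifiers (UMIs, counted transcript copies). After barcodes with fewer than 500 genes detected or with over 10% of UMIs from mitochondria were left out, 4820 and 6543 cells remained, with median depths of 2031 and 1935 UMIs. The libraries shared 53 barcode sequences. Cd3e, a chain of the T cell receptor complex, was detected in 78.4% and 75.7% of cells, Cd4 in 25.3% and 23.5%, and Foxp3 in 20.9% and 18.9%. Cd79a, a B cell receptor chain, was detected in 3.03% and 2.25% of cells, and the haemoglobin gene Hbb-bs in 17.7% and 0.0459%. Some kept barcodes may hold more than 1 cell, since no doublet caller was run.

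The replication members stood at nearly the same summed level in both tissues, while the mitosis members were lower in the spleen. Levels are in CPM, the UMIs of a gene per 1000000 UMIs of the kept cells. The replication members summed to 901.7 CPM in lymph node and 934.6 CPM in spleen, a ratio of 1.04 (1.01 to 1.06). The mitosis members summed to 1416 and 1091 CPM, a ratio of 0.77 (0.755 to 0.786). All 48 members passed the minimum of 20 UMIs over both libraries. Of the 25 mitosis members, 25 were lower in spleen and 12 of them by more than 1.5-fold, against 5.44% of all 11409 genes with that minimum. Of the 23 replication members, 15 were higher and 8 lower in spleen, and 0 passed 1.5-fold in either direction (4.2% of all genes passed it upwards). The median log2 ratio of spleen over lymph node was 0.09 for replication members and -0.56 for mitosis members, and -0.00034 over all genes tested.

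Among the replication members, the 9 licensing and helicase genes summed to 303.1 CPM in lymph node and 332.8 CPM in spleen. Mcm6 stood at 66.9 and 78.5 CPM and Mcm4 at 32.8 and 39.6 CPM, and their ratios of 1.17 (1.08 to 1.28) and 1.21 (1.07 to 1.37) lay above 1. Cdt1, the licensing factor that brings MCM rings to origins, stood at 17.8 and 15.5 CPM, and Cdc6 at 3.45 and 3.67 CPM, differences within counting error. Pcna, the sliding clamp, stood at 93.2 CPM in lymph node and 103 CPM in spleen (ratio 1.1, 1.02 to 1.19). Prim1, the primase subunit that starts each new strand, stood at 15.2 and 19.2 CPM, and its ratio of 1.26 (1.05 to 1.51) was the highest of the 48 members. Pclaf ran the other way, at 82.8 and 71 CPM (ratio 0.858, 0.789 to 0.932). The 5 genes of nucleotide supply, which include both ribonucleotide reductase subunits Rrm1 and Rrm2, summed to 240 and 231.9 CPM, a ratio of 0.966 (0.921 to 1.01) whose interval holds 1.

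Among the mitosis members, the fold by which the spleen level was lower differed from gene to gene. Ube2c stood at 48.3 CPM in lymph node (44.6 to 52.3) and 17.7 CPM in spleen (15.8 to 19.9), 2.73-fold lower (2.37 to 3.14). Cenpf, a protein of the kinetochore, the structure that ties chromosomes to the spindle, stood at 13 and 6.19 CPM, 2.1-fold lower (1.64 to 2.71). Birc5, which encodes survivin of the chromosomal passenger complex, stood at 55.8 and 29.3 CPM, 1.91-fold lower (1.7 to 2.14). These 3 genes had the lowest spleen ratios of the 48. Cyclin A2 (Ccna2) stood at 22 and 12 CPM, cyclin B1 (Ccnb1) at 14.5 and 9.07 CPM, and cyclin B2 (Ccnb2) at 26.7 and 17.5 CPM. The Polo kinase Plk1 stood at 8.2 and 4.57 CPM and Aurora B (Aurkb) at 11.2 and 6.49 CPM. By role, Cdc20, Ube2c and Cdca3 together had a ratio of 0.488 (0.445 to 0.536), the 6 centromere and kinetochore genes 0.617 (0.583 to 0.653) and the 10 cyclins, kinases and kinase partners 0.711 (0.675 to 0.749). Single genes did not keep to this order, since Ccna2 (0.544) and Plk1 (0.557) lay below Cdc20 (0.638) and Cdca3 (0.623). Ube2c gave 631 of the 1174 lymph node UMIs of its role.

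The mitosis members with the smallest differences between tissues were Stmn1, Bub1b, Mki67 and Hmgb2. Stmn1, which destabilises microtubules, stood at 160 and 158 CPM (ratio 0.987, 0.932 to 1.05). Hmgb2, a chromatin protein, stood at 617 and 514 CPM (ratio 0.833, 0.808 to 0.859) and alone gave 26.6% of all member UMIs in lymph node and 25.4% in spleen. Mki67, the source of the Ki-67 antigen used to stain dividing cells, stood at 20.2 and 17.9 CPM, and its ratio of 0.885 (0.748 to 1.05) was within counting error of 1. Bub1b, a spindle checkpoint gene, stood at 4.98 and 4.51 CPM, also within counting error. Without Hmgb2 and Stmn1 the summed mitosis ratio was 0.655. Read as detection in cells thinned to 1200 UMIs, Ube2c was found in 1.53% of cells in lymph node and 0.482% in spleen, Birc5 in 1.9% and 1.06%, and Pcna in 7.38% and 8.77%. A UMI in a cell was not read as expression, since free RNA can also give one and no cell type that should lack these genes was set apart.

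**Figure D1:**
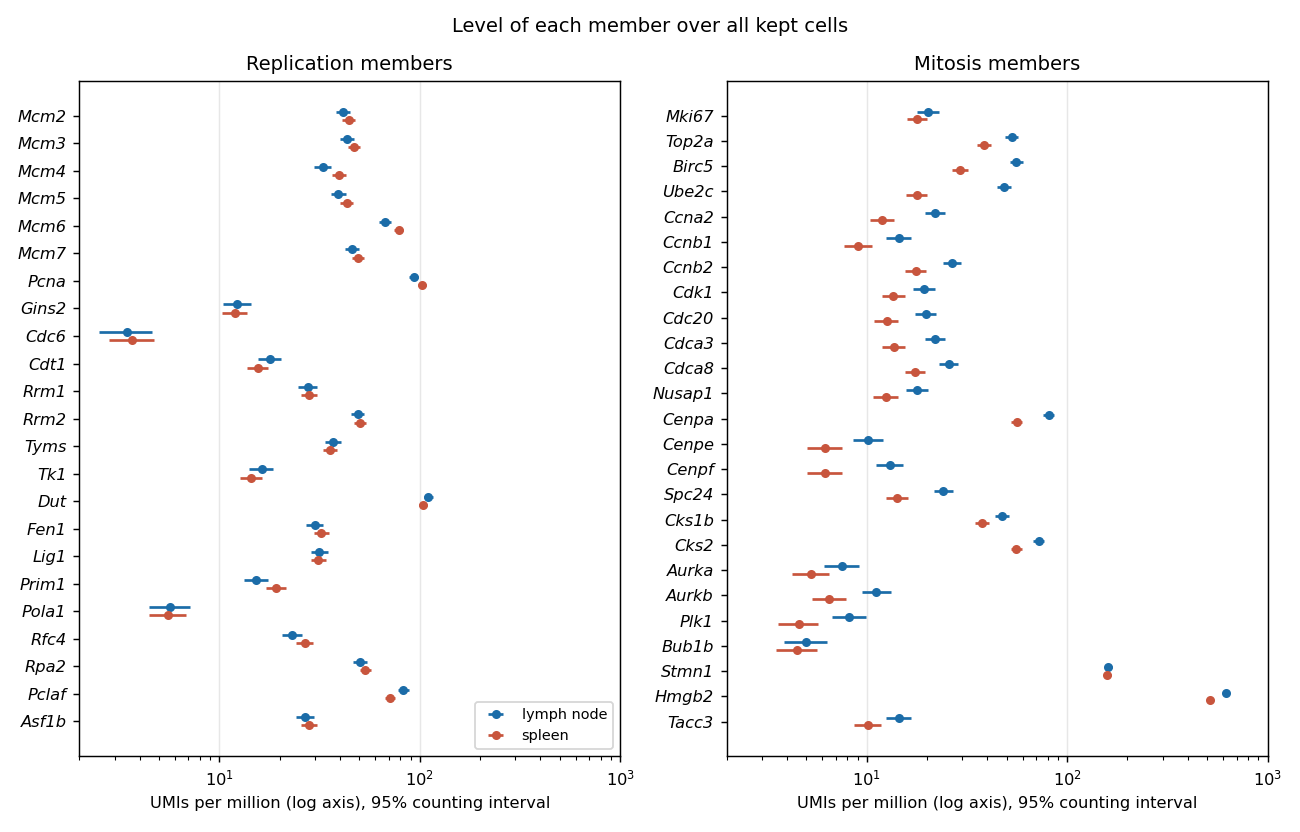
Level of each of the 48 members in CPM (log axis) over the kept cells of the lymph node (blue) and spleen (red) library, with bars for the 95% counting interval. The replication members nearly overlap between tissues, and all 25 mitosis members lie lower in spleen, with Ube2c at 48.3 and 17.7 CPM the widest gap.

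Most member UMIs came from few cells. Cells with at least 10 of the 48 members detected are called member-rich here, a range of a count per cell and not a cell type. They were 139 of 4820 lymph node cells (2.88%, 2.43% to 3.4%, exact binomial interval) and 194 of 6543 spleen cells (2.97%, 2.57% to 3.41%), so the shares overlapped between tissues. These cells held 65.8% and 62.3% of all member UMIs, and 12.4% and 11.2% of all UMIs. They were deep, with median depths of 10134 and 9106 UMIs against 1992 and 1898 in the other cells, and the part of depth in their number was not tested. With every cell thinned to 1200 UMIs, cells with at least 10 members were 1.31% and 1.15% of cells, and without the 6% of cells with the most UMIs they were 0.221% and 0.341%. Near the threshold, 29 and 36 cells had 8 or 9 members detected and 11 and 26 cells had 10 or 11, while 63 and 69 cells had 30 or more. No member was detected in 850 lymph node cells (17.6%) and 1296 spleen cells (19.8%).

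Members differed in how far their UMIs were confined to such cells, which was read for each gene from cells with at least 10 of the other 47 members. In lymph node, at least 75% of UMIs lay there for 21 of 25 mitosis members but for 5 of 23 replication members, and in spleen for 20 and 5. Pclaf was the most confined replication member, with 93.7% of its UMIs in lymph node and 95.3% in spleen. The others at 75% or more were Tk1 at 88.2% and 86.7%, Rrm2 at 87% and 90.1%, Asf1b at 81.7% and 76.1% and Cdc6 at 77.8% and 90.2%. Cenpf (96.5% and 91.3%), Ccna2 (93.7% and 94%) and Nusap1 (93.6% and 93.2%), a spindle protein, were as confined. Under 50% of UMIs lay there for 8 replication members in lymph node and 9 in spleen. Rpa2, a subunit of the complex that coats unwound DNA, had 29.8% and 30.2% of its UMIs in such cells, Cdt1 33.0% and 42.6%, Mcm4 36.2% and 40.8%, and Pcna 44.1% and 41.6%. Within the MCM ring, whose 6 subunits work in equal number, the share ran from 36.2% for Mcm4 to 63.7% for Mcm5 in lymph node and from 40.8% for Mcm4 to 63.8% for Mcm3 in spleen. Among mitosis members, Cenpa, the centromere histone, was the only one under 50%, at 47.2% and 36.8%, and Hmgb2 stood at 58.6% and 56.2%. Outside member-rich cells, the replication members still summed to 438 CPM in lymph node and 453.4 CPM in spleen, and the mitosis members to 468.4 and 406.4 CPM.

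**Figure D2:**
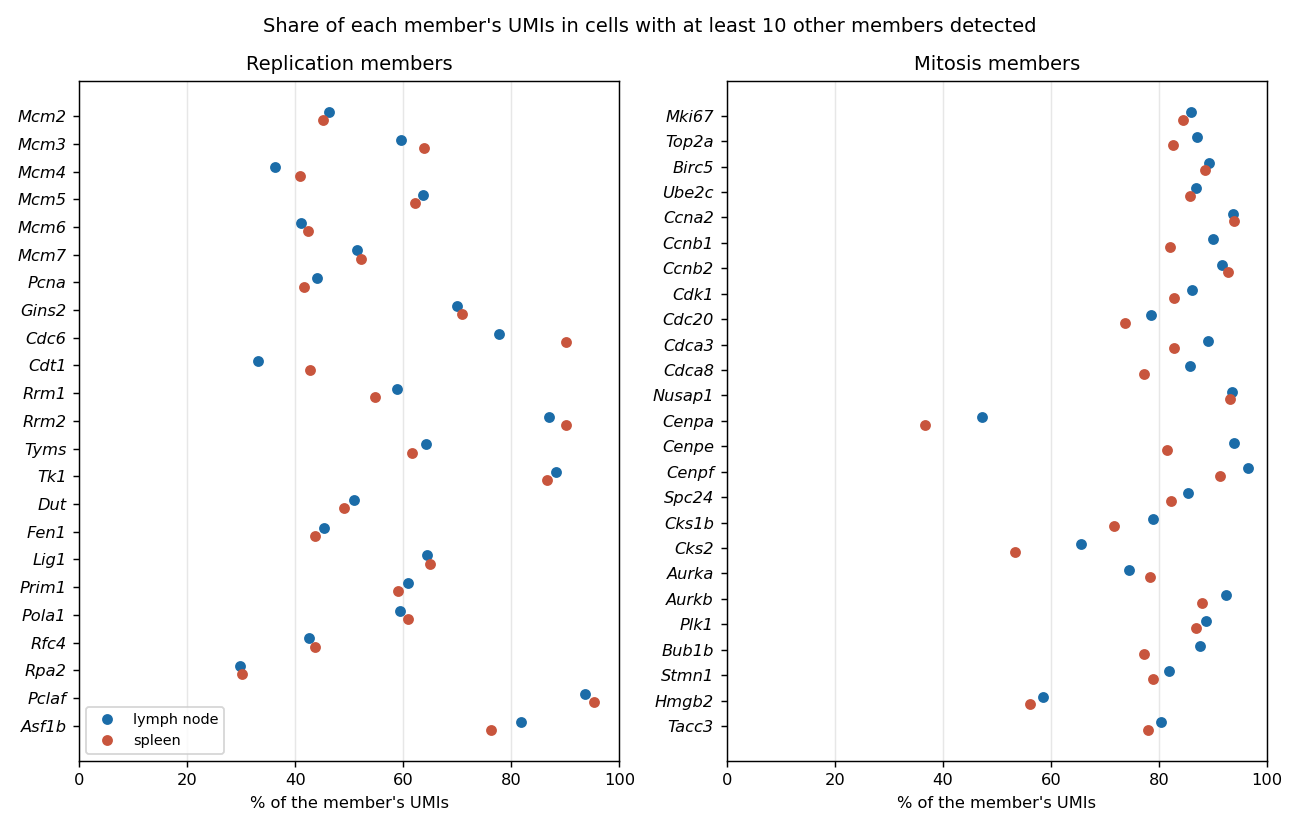
Share of each member's UMIs (percent) that lay in cells with at least 10 other members detected, for lymph node (blue) and spleen (red). Most mitosis members lie above 75% and replication members run from Rpa2 at 29.8% and 30.2% to Pclaf at 93.7% and 95.3%.

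Member-rich cells differed in the balance of mitosis to replication transcripts. For each such cell, the mitosis share of its member UMIs was taken with Hmgb2 and Stmn1 left out. The median share was 37% in lymph node (quartiles 19.1% and 61.3%) and 24.3% in spleen (quartiles 12.5% and 44%). Cells with under 25% mitosis UMIs were 47 of 139 in lymph node and 103 of 194 in spleen, and cells with over 75% were 20 and 14. While the member-rich shares overlapped between tissues, more of the member-rich cells in spleen were weighted to replication transcripts. Member-rich cells of the spleen also had fewer members detected (median 22 against 27 in lymph node) and fewer member UMIs (median 67 against 109). The part of this in the balance was not tested. In member-rich cells alone, the summed spleen over lymph node ratio was 1.14 for replication and 0.805 for mitosis members, and in the other cells it was 1.04 and 0.868 (both chosen after seeing the data). The summed mitosis difference between tissues was therefore smaller, but in the same direction, in cells that were not member-rich. In those cells Hmgb2 alone gave 288.9 of the 468.4 CPM of the mitosis members in lymph node and 248.3 of 406.4 CPM in spleen.

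Detection of many members went together within member-rich cells, which was read for 13 members. Plk1 was detected in 42 lymph node and 36 spleen member-rich cells. Of these, 92.9% and 86.1% also had Ccna2, which was detected in 51.8% and 36.6% of all member-rich cells, and 78.6% and 63.9% had Cdc20, against 42.4% and 27.3%. Of the replication members read, Rrm2 was found in 88.1% and 86.1% of Plk1 cells against 60.4% and 52.6% of all member-rich cells, and Pclaf in 95.2% and 97.2% against 69.1% and 62.4%. Mcm5, Gins2 and Cdc6 differed less, with Mcm5 at 73.8% and 72.2% against 73.4% and 76.3%, Gins2 at 52.4% and 47.2% against 48.2% and 40.2%, and Cdc6 at 19% and 27.8% against 20.9% and 22.7%. Cdc6, which licenses origins before S phase, was detected in 29 and 44 member-rich cells, and 96.6% and 86.4% of these had Mcm5. Cdc6 cells also had more of several mitosis members, with Ccna2 in 75.9% and 63.6%, Mki67 in 75.9% and 61.4% against 55.4% and 43.3%, and Top2a in 89.7% and 75% against 64.7% and 53.1%. Plk1 was found in 27.6% and 22.7% of them, against 30.2% and 18.6% of all member-rich cells. These shares come from cells of the same library and depend on depth, since deeper cells detect more of every gene.

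**Figure D3:**
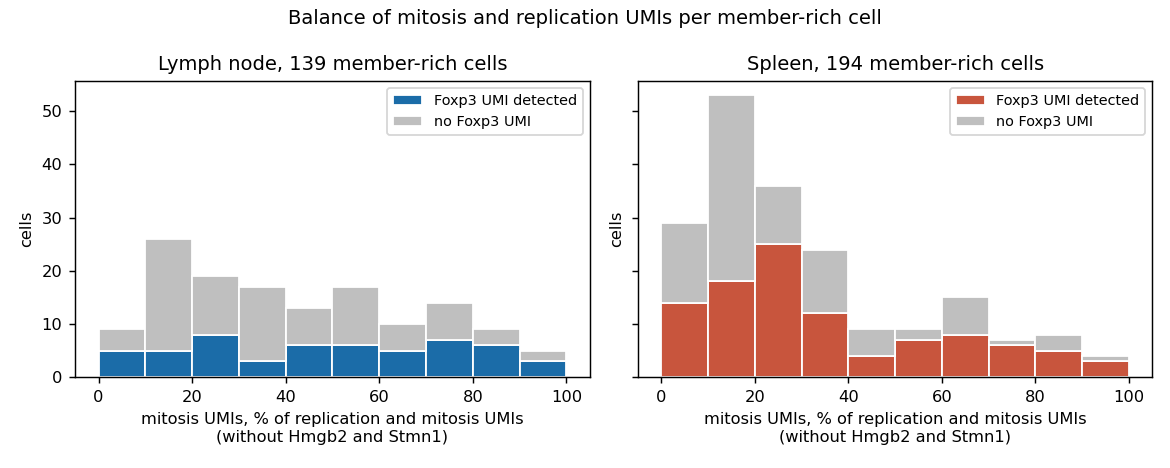
Number of member-rich cells (y axis) by the percentage of mitosis UMIs among replication and mitosis UMIs, Hmgb2 and Stmn1 left out (x axis), in 139 lymph node and 194 spleen cells, with cells in which Foxp3 was detected in colour. The spleen cells pile up under 40%, with a median of 24.3%, and the lymph node cells are spread more evenly, with a median of 37%.

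Cells were then gated by at least 1 raw UMI of a gate gene against none, with the gate gene left out of the totals. A gate of this kind favours deep cells: lymph node cells with a Foxp3 UMI had a median depth of 2849 UMIs against 1846 in those without. Each ratio is therefore given up to 3 ways (member-rich is always read from raw counts): from raw counts, with cells thinned to 1200 UMIs before the gate was read, and without member-rich cells. The last way leaves out cells chosen by the members themselves, so its ratios change in part by that choice. A member was counted as higher or lower past 1.5-fold where at least 10 UMIs were expected in the smaller group. Each background is the share of all genes from raw counts. No such share was computed after thinning or without member-rich cells, so whether the counts in those settings exceed it cannot be told.

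Cells with a UMI of Foxp3, the lineage factor of Treg cells, had the members at 3232 CPM in lymph node against 1972 CPM in cells without, and at 3650 against 1414 CPM in spleen. The ratios were 1.64 (1.6 to 1.68) and 2.58 (2.53 to 2.64). All 48 members passed the minimum, and 30 were higher past 1.5-fold in lymph node (25 mitosis and 5 replication members, background 4.86% of genes) and 47 in spleen (background 6.84%), and 0 were lower in either (background 5.43% and 5.81%). Fewer members reached the minimum after thinning, and 4 of 24 and 4 of 22 were then higher, and without member-rich cells 3 of 31 and 6 of 30 were. In lymph node the replication ratio was 1.2 (1.16 to 1.25) and the mitosis ratio 1.97 (1.91 to 2.03), and in spleen 2.17 (2.1 to 2.24) and 3 (2.91 to 3.09). From raw counts, the mitosis members were thus raised more than the replication members, and the replication members more in spleen than in lymph node. Without member-rich cells, the replication ratios were 0.969 (0.908 to 1.03) in lymph node and 0.952 (0.899 to 1.01) in spleen. The mitosis ratios were then 1.13 (1.06 to 1.2) and 1.13 (1.07 to 1.2). With a Foxp3 UMI, Cenpf stood at 28.7 CPM in lymph node and 13.8 CPM in spleen, and without one at 7.08 and 3.31 CPM. Rrm2, the inducible subunit of ribonucleotide reductase, stood at 63.3 against 43.6 CPM in lymph node (ratio 1.45, 1.23 to 1.71) but at 120 against 24.2 CPM in spleen (ratio 4.97, 4.3 to 5.74). Mcm2 was not higher in lymph node (ratio 0.878, 0.718 to 1.07) and was higher in spleen (1.51, 1.29 to 1.76). Read after thinning, the summed ratios were 1.18 (1.1 to 1.26) and 1.27 (1.19 to 1.36), and without member-rich cells they were 1.05 (1.01 to 1.1) and 1.03 (0.993 to 1.08). Member-rich cells were 54 of 1007 Foxp3 cells in lymph node and 102 of 1239 in spleen. Gated after thinning, the member-rich shares were 2.92% (1.65% to 4.78%) of Foxp3 cells and 3.06% of other cells in lymph node, and 3.81% (2.43% to 5.66%) and 3.16% in spleen, so that they overlapped in both tissues.

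Klrg1, an inhibitory receptor found on terminally differentiated T cells and on effector Treg cells, marked the gate with the highest member level. The members stood at 4820 against 2132 CPM in lymph node and at 7506 against 1667 CPM in spleen, ratios of 2.26 (2.19 to 2.33) and 4.5 (4.39 to 4.62). Past 1.5-fold, 24 of 42 members with enough UMIs were higher in lymph node (21 mitosis and 3 replication members, background 11.3%) and 39 of 39 in spleen (background 15.6%). In neither tissue was any lower (background 8.55% and 11.1%). After thinning 1 of 4 and 1 of 2 members were higher, and without member-rich cells 2 of 14 and 3 of 15. The 2 tissues differed by gene group: in lymph node the replication ratio was 1.34 (1.25 to 1.42) and the mitosis ratio 2.91 (2.8 to 3.02), whereas in spleen they were 3.85 (3.7 to 4) and 5.1 (4.93 to 5.27). Ube2c stood at 195 CPM with and 37.5 CPM without a Klrg1 UMI in lymph node and at 74.5 and 14 CPM in spleen, ratios of 5.2 (4.34 to 6.2) and 5.31 (4.04 to 6.92) that overlapped. Mcm5 stood at 36.5 against 39.4 CPM in lymph node, a ratio of 0.926 (0.63 to 1.32), and at 142 against 36.9 CPM in spleen, a ratio of 3.85 (3.19 to 4.63). Member-rich cells were 23 of 223 Klrg1 cells in lymph node (10.3%, 6.65% to 15.1%) and 46 of 229 in spleen (20.1%, 15.1% to 25.9%), against 2.52% and 2.34% of other cells. After thinning, they were 6 of 129 (4.65%, 1.73% to 9.85%) and 14 of 107 (13.1%, 7.34% to 21%), against 3% and 3.05%, so only the spleen interval lay above the other cells. The thinned ratios were 1.4 (1.23 to 1.58) and 2.69 (2.42 to 2.97). Without member-rich cells, the summed mitosis members were still 1.54-fold (1.4 to 1.69) and 1.53-fold (1.38 to 1.7) higher in Klrg1 cells, and the replication members were not (0.956 and 0.934). Outside member-rich cells, Hmgb2 alone gave 288.9 of the 468.4 CPM of the mitosis members in lymph node and 248.3 of 406.4 CPM in spleen. These Klrg1 ratios therefore weigh Hmgb2 heavily, and no ratio without Hmgb2 was made in this setting.

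Tnfrsf9 encodes 4-1BB, a costimulatory receptor induced on activation. Its cells had the members at 3469 against 1955 CPM in lymph node and at 3280 against 1650 CPM in spleen, ratios of 1.77 (1.73 to 1.82) and 1.99 (1.94 to 2.03). Past 1.5-fold, 44 of 48 members were higher in lymph node (background 9.68%) and 45 of 48 in spleen (background 11.9%), and 0 were lower (background 5.67% and 6.12%). After thinning these counts were 0 of 24 and 3 of 23, and without member-rich cells 2 of 28 and 4 of 29. Replication and mitosis members were higher to a like degree here, at 1.71 (1.65 to 1.78) and 1.82 (1.76 to 1.87) in lymph node and at 2.01 (1.95 to 2.08) and 1.97 (1.91 to 2.03) in spleen. Mcm5 stood at 66 against 30.8 CPM in lymph node and at 76.9 against 33.3 CPM in spleen. The thinned ratio was 1.03 (0.953 to 1.1) in lymph node, where the interval holds 1, and 1.22 (1.15 to 1.3) in spleen.

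Ly6c1, a surface antigen of the Ly6 family, marked cells with lower member levels, at 1814 CPM in lymph node and 1627 CPM in spleen, where cells without it stood at 2426 and 2126 CPM. The ratios were 0.748 (0.724 to 0.773) and 0.766 (0.744 to 0.788), and thinning made them 0.676 (0.624 to 0.732) and 0.679 (0.632 to 0.728). Past 1.5-fold, 12 of 47 members were lower in lymph node (background 9.19%) and 17 of 48 in spleen (background 11.6%), and 0 were higher (background 1.69% and 1.2%). After thinning 12 of 25 and 11 of 26 were lower, and without member-rich cells 5 of 27 and 3 of 29. From raw counts, those lower in lymph node were 10 of 25 mitosis and 2 of 22 replication members, the latter 9.09% and near the background. In spleen they were 11 of 25 and 6 of 23. The raw replication ratios were 0.829 and 0.754 and the mitosis ratios 0.697 and 0.775. Without member-rich cells they were 0.948 (0.88 to 1.02) and 0.985 (0.928 to 1.05) for replication, and 0.829 and 0.829 for mitosis members. Top2a, the topoisomerase that untangles sister chromosomes, stood at 41.5 against 55.2 CPM in lymph node and at 19.2 against 43.4 CPM in spleen. Gated after thinning, member-rich cells were 3 of 633 Ly6c1 cells in lymph node (0.474%, 0.0978% to 1.38%) and 3 of 873 in spleen (0.344%, 0.0709% to 1%), against 3.46% and 3.71% of other cells. Of the 6 gates, Ly6c1 was 1 of the 2, with ICRE, whose thinned member-rich share lay below that of the other cells in both tissues without overlap of the intervals.

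Cd79a marks B cells or barcodes that carry B cell RNA. The 146 Cd79a cells of the lymph node and 147 of the spleen had median depths of 2865 and 2351 UMIs, and 27 and 25 of them also had a Foxp3 UMI. The members stood at 2989 against 2284 CPM in lymph node and at 2179 against 2021 CPM in spleen, ratios of 1.31 (1.25 to 1.37) and 1.08 (1.01 to 1.15). The thinned ratios turned the direction, to 0.735 (0.61 to 0.879) and 0.757 (0.626 to 0.908). Past 1.5-fold, 13 of 36 members were higher in lymph node (background 5.13%), 10 of them replication members, and 0 were lower (background 11.8%), and in spleen 2 of 24 were higher (background 5.44%) and 2 lower (background 12.1%). Pclaf was the only member higher past 1.5-fold in both tissues, at 153 against 79.3 CPM and at 114 against 69.8 CPM. Only 10 and 8 Cd79a cells were member-rich, so these values rest on few cells. In lymph node 1 cell gave 470 of the 1874 member UMIs of Cd79a cells, and in spleen 1 cell gave 226 of 995.

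Gene by gene, the gates fell in the same order as by their sums. Over the members with enough UMIs, the median log2 ratio was 0.75 in lymph node and 1.57 in spleen for Foxp3, 1.15 and 2.11 for Klrg1 and 0.90 and 1.11 for Tnfrsf9. It was -0.41 and -0.47 for Ly6c1, and 0.46 and 0.0052 for Cd79a. Over all genes tested in the same gates, the medians lay between -0.12 and 0.090.

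**Figure D4:**
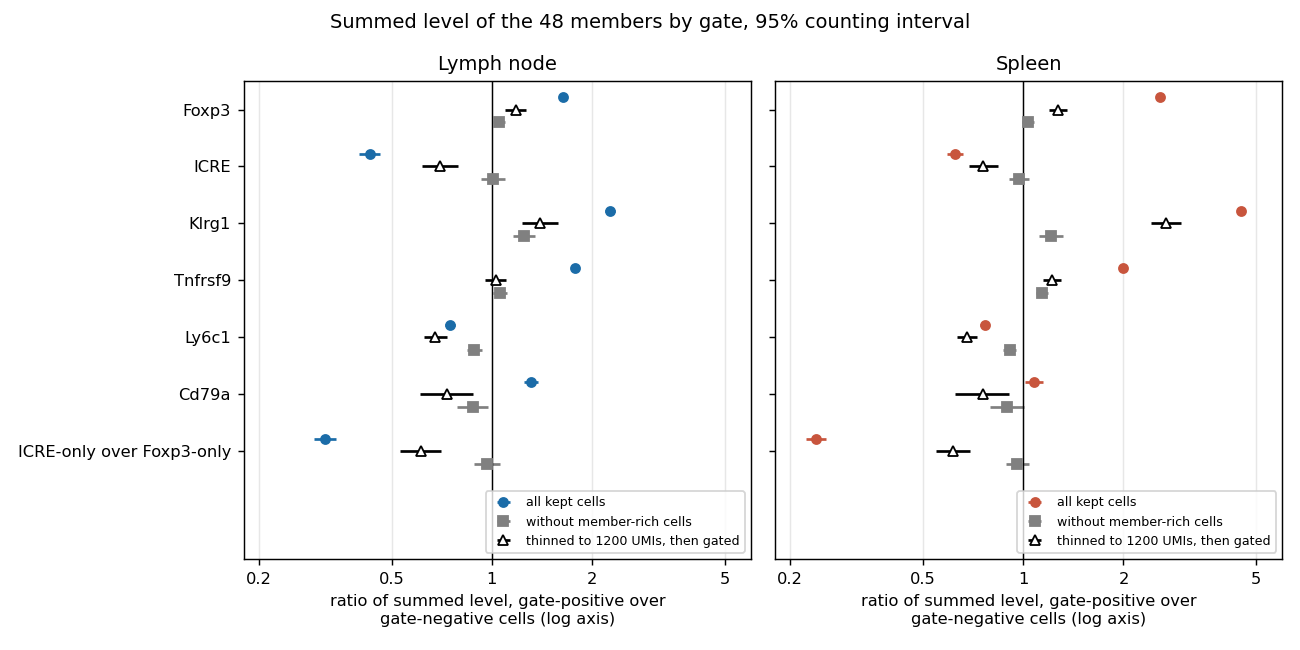
Ratio of the summed level of the 48 members between cells with and without a UMI of each gate gene (log axis, bars are 95% counting intervals), from raw counts (filled circles), without member-rich cells (grey squares) and with cells thinned to 1200 UMIs before gating (open triangles). Klrg1 in spleen is highest at 4.5 and stays at 2.69 after thinning, the grey squares lie between 0.876 and 1.25, and Cd79a crosses 1 between settings.

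ICRE is a feature the submitters added to the gene table, and the sources used here do not give its sequence. Reading it as the transcript of the Cre allele of Foxp3 is therefore an assumption. It had 442 UMIs over all lymph node barcodes and 651 in spleen, while the added features EYFP and CRE had 0 and 0 UMIs in lymph node and 2 and 0 in spleen. Cells with an ICRE UMI had the members at 1028 against 2395 CPM in lymph node and at 1297 against 2077 CPM in spleen, ratios of 0.429 (0.399 to 0.462) and 0.625 (0.592 to 0.659). Past 1.5-fold, 33 of 39 members were lower in lymph node (background 8.14%) and 28 of 39 in spleen (background 6.65%), and 0 were higher (background 7.71% and 5.38%). After thinning 3 of 8 and 5 of 14 were lower, and without member-rich cells 0 of 16 and 2 of 20. The median log2 ratio over the members was -1.70 and -0.79, against 0.072 and 0.078 over all genes. Member-rich cells were 1 of 379 ICRE cells in lymph node and 4 of 549 in spleen. ICRE cells were shallower than the others, at median depths of 1620 against 2104 and 1663 against 1990 UMIs. After thinning, the ratios were 0.7 (0.618 to 0.79) and 0.76 (0.686 to 0.841), and 0 of 252 and 0 of 362 ICRE cells were member-rich, which allows shares of up to 1.19% and 0.829%, against 3.22% and 3.43% of other cells. Without member-rich cells the ratios were 1.01 (0.93 to 1.09) and 0.973 (0.907 to 1.04).

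Cells with ICRE and no Foxp3 UMI were also set against cells with Foxp3 and no ICRE UMI, 354 against 982 cells in lymph node and 505 against 1195 in spleen. The members stood at 1037 against 3286 CPM in lymph node and at 869.8 against 3640 CPM in spleen, 3.17-fold (2.93 to 3.43) and 4.19-fold (3.9 to 4.5) lower in ICRE-only cells. Past 1.5-fold, 35 of 41 members were lower in lymph node (background 10.6%) and 41 of 42 in spleen (background 10.8%). Cdt1 was the 1 member higher in lymph node (background 12%) and 0 were in spleen (background 11.7%). After thinning 5 of 8 and 9 of 16 were lower, and without member-rich cells 1 of 16 and 3 of 19. The median log2 ratio over the members was -2.19 and -2.62, against 0.077 and 0.074 over all genes. All 22 mitosis members with enough UMIs were among those lower in lymph node. Pclaf stood at 7.73 CPM in ICRE-only and 112 CPM in Foxp3-only cells of the lymph node, and at 6.37 and 167 CPM in spleen, 14.5-fold and 26.1-fold lower. Birc5 stood at 7.73 and 104 CPM in lymph node and at 4.25 and 66.4 CPM in spleen. Top2a had 3 UMIs in ICRE-only cells of each tissue against 326 and 370 in Foxp3-only cells, ratios of 0.0498 (0.0102 to 0.147) and 0.0379 (0.00778 to 0.112). Between 82.6% and 95.3% of the UMIs of these 3 genes lay in cells rich in other members, and ICRE-only cells included 1 member-rich cell in each tissue against 54 and 99 among Foxp3-only cells. Of the widely spread genes, Mcm2 and Rpa2 differed less than these 3. Mcm2 stood at 37.1 and 38.3 CPM in lymph node (ratio 0.97, 0.6 to 1.51) and at 38.2 and 56.8 CPM in spleen (0.673, 0.461 to 0.957). Rpa2 stood at 38.7 and 48.6 CPM in lymph node (0.796, 0.501 to 1.22) and at 40.4 and 68.4 CPM in spleen (0.59, 0.409 to 0.828). Cdt1, also widely spread, had ratios of 1.51 in lymph node and 0.447 in spleen. The part of member-rich cells in these differences was not tested. The depths differed, with medians of 1606 UMIs in ICRE-only and 2860 in Foxp3-only cells of the lymph node and of 1635 and 2941 in spleen. With cells thinned before gating, the summed ratios were 0.611 (0.531 to 0.701) and 0.616 (0.547 to 0.693), and without member-rich cells they were 0.967 (0.882 to 1.06) and 0.961 (0.888 to 1.04).

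The same contrast can be read without a gate, from the make-up of ICRE and Foxp3 UMIs in a set of cells. In member-rich cells, ICRE gave 1 of 97 ICRE and Foxp3 UMIs in lymph node (1.03%, 0.0261% to 5.61%) and 5 of 184 in spleen (2.72%, 0.888% to 6.23%). In the other cells it gave 24.5% (22.5% to 26.5%) and 28.2% (26.3% to 30.1%). The intervals did not overlap in either tissue. In CPM, ICRE stood at 0.616 in member-rich and 38.1 in other cells of the lymph node and at 2.68 and 43.1 in spleen, while Foxp3 stood at 59.1 and 118 CPM and at 95.9 and 110 CPM. Member-rich cells were deeper, as given above, and the part of depth in these shares was not tested.

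**Figure D5:**
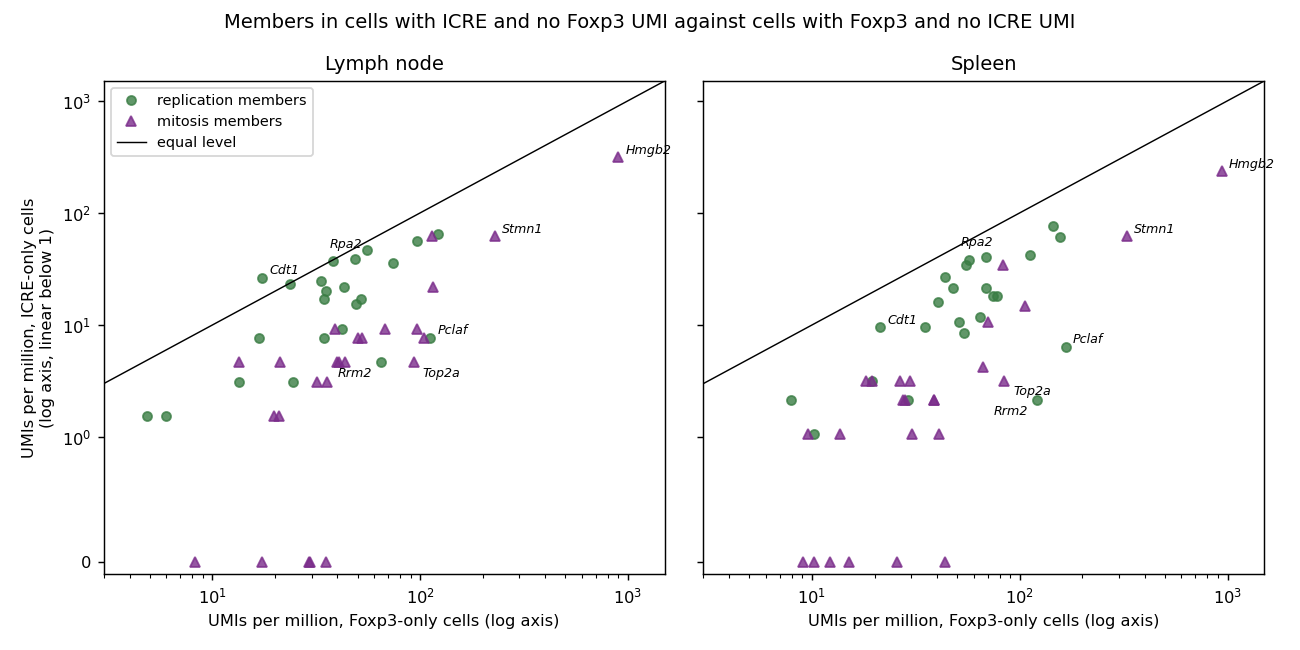
Level of each member in ICRE-only cells (y axis, CPM, log axis that is linear below 1) against Foxp3-only cells (x axis, log axis), with replication members as green circles and mitosis members as purple triangles and a line of equal level. Nearly all points lie under the line, with Pclaf and Top2a far below it in both tissues. In lymph node Rpa2 lies close to the line and Cdt1 lies above it at 26.3 against 17.4 CPM.

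Genes outside the 48 members were read in member-rich against other cells, a split that the members themselves define. Of 45 other replication genes, 31 had enough UMIs in lymph node and 30 were higher past 1.5-fold, and in spleen 34 of 34 were, against 16.9% and 17.8% of all other genes. Of 60 other mitosis genes, 37 of 39 and 33 of 36 were higher. The median log2 ratio was 2.23 and 2.31 for the replication list and 3.28 and 3.09 for the mitosis list, against -0.0996 and -0.0503 over all other genes. E2f8, an E2F factor that represses S phase genes, had 93.3% of its UMIs in member-rich cells in lymph node and 94% in spleen. Chaf1a, a subunit of the chaperone that sets histones on new DNA, had 87.4% and 83.9%. The checkpoint kinase Bub1 had 100% (40 UMIs) and 97.5%, the kinesin Kif2c 94.9% and 97.4%, and Tpx2, the activator of Aurora A, 94.1% and 91.6%. Of the remaining genes, those with the highest ratios in both libraries included Esco2, Neil3, Hist1h2ap, Ska1, Shcbp1, Hist1h1b, Clspn, Knl1, Cdkn3 and Mxd3. Esco2, which acetylates cohesin in S phase, stood at 95.1% and 96.1%. In lymph node the exceptions among mitosis genes were Smc4, a condensin subunit, at 428.5 CPM in member-rich and 607.6 CPM in other cells of the lymph node, and Pttg1, the separase inhibitor securin, at 58.5 and 102 CPM. In spleen neither was higher past 1.5-fold, and nor was Bub3, a checkpoint protein, at 189 and 134.4 CPM.

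Genes known to hold T cells at rest went the other way, with 12 of 15 lower past 1.5-fold and 1 higher in each tissue, against 26.3% and 23.5% of other genes lower. Txnip, an arrestin that limits glucose uptake, stood at 72.6 CPM in member-rich and 443.1 CPM in other cells of the lymph node and at 94.8 and 460.7 CPM in spleen. Btg1, an antiproliferative factor, stood at 432.1 and 2080 CPM in lymph node and at 420.4 and 1954 CPM in spleen, and Klf2, which keeps T cells quiescent and recirculating, at 429.1 and 1055 CPM and at 418.2 and 1105 CPM. The exception was Cdkn2c, the CDK inhibitor p18, which was higher in member-rich cells, at 109.6 against 20 CPM and 75 against 15 CPM. Of 6 Treg markers, 6 were lower past 1.5-fold in lymph node and 2 in spleen. Il2ra, the CD25 chain of the sort, was among them in both, at 43.7 against 146.5 CPM and 79.3 against 197.3 CPM. Ikzf2, which encodes Helios, stood at 429.7 against 728 CPM in lymph node and at 671 against 651.6 CPM in spleen. Beside these, the summed B cell markers stood at 869.8 CPM in member-rich and 1529 CPM in other cells of the lymph node and at 1335 and 1250 CPM in spleen, and the T cell markers at 2401 and 3109 CPM and at 2363 and 3096 CPM. Of the 6 B cell markers with enough UMIs in each tissue, 0 were higher past 1.5-fold. Lower past 1.5-fold were 5 in lymph node and 3 in spleen, where the median log2 ratio was -0.29. The myeloid markers stood at 136.7 and 157.4 CPM in lymph node and at 292.9 and 176.1 CPM in spleen, where Cst3 was 1.83-fold higher and Lyz2 lower, and S100a8 and S100a9 had 0 UMIs in both tissues. The natural killer or innate lymphoid markers stood at 189.6 and 137.8 CPM in lymph node and at 127.5 and 133.5 CPM in spleen. Of the 3 with enough UMIs in lymph node, Nkg7 was 1.65-fold higher and 2 were lower past 1.5-fold (median log2 ratio -1.64). Of the 2 in spleen, 0 were higher and 1 was lower. The CD8 T cell markers stood at 29.5 and 39.2 CPM and at 31.1 and 43.8 CPM, and the erythroid markers at 96.6 and 358.6 CPM in lymph node and at 4.28 and 0.542 CPM in spleen. The erythroid level in spleen member-rich cells rests on 8 UMIs, and 0 of the 4 erythroid genes had enough UMIs there to be read. The part of these other cell types in the member-rich cells was not tested. Some members share sequence with processed pseudogenes, such as Pcna with Pcna-ps2, and some overlap another gene on the opposite strand, among them Mcm7, Gins2, Tk1, Fen1, Lig1, Rfc4, Pclaf, Ube2c, Ccna2 and Cdc20, so their counts are less certain, and Cdt1 overlaps Gm20388 on the same strand. The sources used here do not state whether the counting used strand.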

How the data were processed

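1 lymph node and 1 spleen library of single-cell RNA were prepared with 10x 3' V2 chemistry. The deposited files hold raw UMI counts by gene and barcode. Per the submitters' processing notes, the authors made them with Cell Ranger 3.0.1 and the mm10 genome, and no barcode has under 500 UMIs. The members and lists were chosen with earlier results of these data known. Counts were summed over kept cells (at least 500 genes, at most 10% mitochondrial UMIs, which left out 259 and 297 barcodes) and divided by their total UMIs. CPM has exact Poisson, shares exact binomial (Clopper-Pearson) and ratios exact conditional 95% intervals (scipy 1.17.1, Python 3.11.15). These cover counting error only, not variation between cells or animals. No p-value was computed. Thinning to 1200 UMIs per cell left out 252 and 525 cells. No doublet caller was run, and leaving out the 6% of cells with the most UMIs was an alternative. A count of 0 of n cells is given with the share that 3 of n would make. All members could be named. Up to 6 genes of each other list were those with the largest share of UMIs in member-rich cells (at least 20 UMIs in each library), and the 12 further genes had the highest ratio in the lower of both libraries (at least 50 UMIs in each). Some genes that this rule names are not reported here. The scripts were tested on simulated data. Promoters are from RefSeq on GRCm38.p6, and overlapping genes and pseudogenes are from GENCODE on GRCm38. Groups come from the tissue labels.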

Additional observations from a re-analysis of the deposited data

Results flagged for a closer look

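Cdt1, the licensing factor, was higher in ICRE-only than in Foxp3-only cells of the lymph node (ratio 1.51, 0.826 to 2.62, from 17 and 61 UMIs) and lower in spleen (0.447, 0.198 to 0.886, from 9 and 94 UMIs), so it passed 1.5-fold in opposite directions in the 2 tissues. Rrm2, the ribonucleotide reductase subunit, was higher in Cd79a cells of the lymph node (1.9, 1.42 to 2.5, from 56 UMIs) and lower in those of the spleen (0.515, 0.265 to 0.904, from 12 UMIs). Rfc4, a subunit of the loader of the sliding clamp, did the same, at 1.64 (1.02 to 2.51, from 23 UMIs) and 0.485 (0.177 to 1.07, from 6 UMIs). The difference between tissues was not tested for any of these 3 genes, since each tissue has 1 library.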

How the results depend on the processing

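Values are given as lymph node, then spleen, for gate ratios over all 48 members, and every alternative not said to be added was listed at the start. Thinning before gating gave 1.18 and 1.27 for Foxp3, 0.700 and 0.76 for ICRE, 1.4 and 2.69 for Klrg1, 1.03 and 1.22 for Tnfrsf9, 0.676 and 0.679 for Ly6c1, 0.735 and 0.757 for Cd79a, and 0.611 and 0.616 for ICRE-only over Foxp3-only cells. Thinning after gating gave 1.5 and 1.95 for Foxp3, 0.713 and 0.778 for ICRE, 2.19 and 4.01 for Klrg1, 1.49 and 1.76 for Tnfrsf9, 0.792 and 0.829 for Ly6c1, 1.08 in lymph node for Cd79a, and 0.525 and 0.451 for ICRE-only cells. It also moved the mitosis ratio between tissues to 0.837 and the member-rich shares to 1.31% and 1.15%. Weighting each cell equally gave 1.5 and 1.94 for Foxp3, 0.746 and 0.777 for ICRE, 2.16 and 3.86 for Klrg1, 1.44 and 1.71 for Tnfrsf9, 0.802 and 0.836 for Ly6c1, 1.08 in lymph node for Cd79a, 0.557 and 0.449 for ICRE-only cells, and 0.836 for the mitosis ratio between tissues. Member-rich cells were chosen by the members themselves, so ratios without them change in part by that choice. Without them the ICRE ratio in lymph node turned to 1.01, and the others were 1.05 and 1.03 for Foxp3, 0.973 for ICRE in spleen, 1.25 and 1.21 for Klrg1, 1.06 and 1.14 for Tnfrsf9, 0.886 and 0.91 for Ly6c1, 0.876 and 0.897 for Cd79a, and 0.967 and 0.961 for ICRE-only cells. The mitosis ratio between tissues was then 0.868, and in member-rich cells alone it was 0.805, with 1.14 for replication (both added after seeing the data). Without the 6% of cells with the most UMIs, the values were 1.17 and 1.18 for Foxp3, 0.954 and 0.911 for ICRE, 1.28 and 2.23 for Klrg1, 1.09 and 1.19 for Tnfrsf9, 0.821 and 0.844 for Ly6c1, 0.84 and 0.767 for Cd79a, 0.843 and 0.812 for ICRE-only cells, 0.869 for the mitosis ratio between tissues, and 0.221% and 0.341% for the member-rich shares. Gating at 2 UMIs gave 2.09 and 3.38 for Foxp3, 0.378 and 0.407 for ICRE, 2.76 and 5.62 for Klrg1, 1.94 in spleen for Tnfrsf9, 0.358 in spleen for Ly6c1, and 0.521 and 0.369 for Cd79a. The median over members in place of the sum gave 2.98 in spleen for Foxp3, 0.307 and 0.577 for ICRE, 4.32 in spleen for Klrg1, 1.86 and 2.16 for Tnfrsf9, 0.723 in spleen for Ly6c1, 1.38 and 1.004 for Cd79a, 0.219 and 0.163 for ICRE-only cells, and 1.06 and 0.679 for replication and mitosis between tissues. Without Hmgb2 and Stmn1 the mitosis ratio between tissues was 0.655, Klrg1 stood at 2.09 and 4.23, Tnfrsf9 at 1.86 and 2.05, and Foxp3 in spleen at 2.46. Without cells that had a UMI of another cell type's marker, the replication ratio between tissues was 1.09, Foxp3 in lymph node 1.7, Ly6c1 in lymph node 0.612 and Tnfrsf9 in spleen 1.89. A threshold of 5 members gave member-rich shares of 8.46% and 7.41%, and of 15 members 2.43% and 2.15%. Apart from the case of ICRE above and Cd79a, which lay on both sides of 1, each gate ratio stayed on the same side of 1, as did the mitosis ratio between tissues. The interval then held 1 without member-rich cells for Foxp3 and ICRE in spleen and for ICRE-only cells in both tissues, after thinning before gating for Tnfrsf9 in lymph node, and without the 6% of cells with the most UMIs for ICRE in lymph node. No interval was made for equal weights or for the median.

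Across the alternatives the number higher ran from 3 to 31 in lymph node and 4 to 48 in spleen for Foxp3 (30 and 47 in the report), from 1 to 25 and 1 to 39 for Klrg1 (24 and 39), from 0 to 45 and 3 to 45 for Tnfrsf9 (44 and 45) and from 0 to 13 and 0 to 2 for Cd79a (13 and 2). The number lower ran from 0 to 33 and 2 to 30 for ICRE (33 and 28), from 5 to 30 and 3 to 38 for Ly6c1 (12 and 17), from 0 to 14 in each tissue for Cd79a (0 and 2) and from 1 to 36 and 3 to 41 for ICRE-only cells (35 and 41). Between tissues, the mitosis members lower in spleen ran from 6 to 13 (12). The cause was not tested. Fewer members reach the minimum of UMIs where cells are thinned or left out. For the gates, no share over all genes was computed in the alternatives, so these counts have no background beside them. No paired analysis was possible because each tissue has 1 library and no test was made. Depth limits what a single cell shows: at 1200 UMIs, Top2a or Cenpf can be missed in a cell that expresses it, so absence in a cell is not absence of expression.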
